A study of Mus musculus with 24 samples.

Results

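The genes described here are 10 markers of amacrine and horizontal cells, the inhibitory interneurons of the retina, followed in whole mouse retina. They were taken by symbol, with no threshold on their values though with earlier results of these data known, as the rows of the retina count table whose Ensembl identifier carries the symbol *Gad1*, *Gad2*, *Slc32a1*, *Slc6a9*, *Chat*, *Slc18a3*, *Calb1*, *Calb2*, *Lhx1* or *Onecut1*. These are 10 of the 36595 genes in the table, each matched to 1 row, and all 10 were among the 19173 genes that passed the filter on low counts. They held 75 to 16047 counts in every library.

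Horizontal cells sit in the outer retina and feed back onto photoreceptors, while amacrine cells shape the signal between bipolar and ganglion cells in the inner retina. Most amacrine cells release either GABA or glycine. Starburst amacrine cells release acetylcholine as well as GABA and are known for direction selectivity. Calbindin (*Calb1*) marks horizontal cells and some amacrine cells in the mouse, and calretinin (*Calb2*) marks amacrine and ganglion cells.

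Retinas came from 4 groups of 3 mice. WT mice were littermates of GSDMD-KO mice, which carry a short CRISPR/Cas9 deletion in exon 5 of *Gsdmd* on a C57/B6 background in every cell of the body. WT-RA and KO-RA mice stayed in room air (21% oxygen), and WT-O2 and KO-O2 mice were kept in 75% oxygen from postnatal day 7 to 12 and then returned to room air. Retinas were collected on day 18. The comparisons ask how hyperoxia changed these genes in each genotype, and whether the loss of gasdermin D, a pore-forming protein of pyroptotic cell death, changed that response. The labels give an animal for each library and no date or batch, and the replicate numbers used here only name the libraries.

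The libraries held 24863257 to 29093035 counts. Group names are those of the labels throughout. *Gsdmd* was at 3.66, 0.37 and 2.34 CPM (counts scaled to the total of their library) in WT-RA, 5.95, 3.20 and 3.95 in WT-O2, 1.04, 0.82 and 0.59 in KO-RA and 1.14, 1.52 and 3.07 in KO-O2. The library labelled WT-RA replicate 2 was thus below every KO library. The library labelled KO-O2 replicate 3 was the one KO library above WT-RA replicate 3, though below every WT-O2 library. Reads from outside the deleted stretch can still be counted in a KO retina, so this is only a partial check of the labels. The 9 lens genes examined summed to 16947, 53671 and 22840 CPM in the libraries labelled WT-RA replicate 2, WT-RA replicate 3 and KO-RA replicate 3. Elsewhere they summed to 5.4 to 309 CPM. All WT-RA libraries, from 46.1 CPM, were above all WT-O2 libraries, at 5.4 to 7.8 CPM. Lens content and exposure thus went together in WT. The 8 genes of the retinal pigment epithelium summed to 192 to 550 CPM in WT-RA and 105 to 263 in WT-O2. In KO-RA they summed to 355 to 2467 CPM, and in KO-O2 to 105 to 281. Y-linked genes were expressed in 3 of 3 libraries of each room-air group and in 1 of 3 of each hyperoxia group, so sex and exposure were not balanced. Rod genes, which mark the most abundant retinal cell, summed to 52467 to 69237 CPM in all 12 libraries, and no marker of any cell type examined stayed under 3 counts in all libraries.

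Upstream sequence is shown for *Chat* and *Slc18a3*, which share a locus, and for *Gad1* and *Gad2*, whose responses are set side by side further on. *Slc18a3* lies inside *Chat* on the same strand, and the RefSeq starts of the 2 genes are 1059 bases apart. Each stretch is the part of the 250 bases before the RefSeq start that overlaps no annotated exon, 5′ to 3′ on the gene's own strand, from GRCm38.p6. It covers chr14:32465990-32466159 (minus) for *Chat*, chr14:32464851-32465041 (minus) for *Slc18a3*, chr2:70561879-70562041 (plus) for *Gad1* and chr2:22622077-22622204 (plus) for *Gad2*. Capitals mark a CCAAT box, a GC box with the letters GGGCGG, or a TATA box with the letters TATAAA, in either direction.
Chat: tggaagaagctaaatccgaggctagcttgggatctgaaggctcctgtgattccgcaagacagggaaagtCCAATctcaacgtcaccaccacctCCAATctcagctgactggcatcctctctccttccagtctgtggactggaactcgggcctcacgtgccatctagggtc
Slc18a3: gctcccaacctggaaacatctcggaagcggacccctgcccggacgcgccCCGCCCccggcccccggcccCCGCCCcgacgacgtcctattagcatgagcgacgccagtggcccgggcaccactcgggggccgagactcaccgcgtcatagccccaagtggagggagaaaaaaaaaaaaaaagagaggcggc
Gad1: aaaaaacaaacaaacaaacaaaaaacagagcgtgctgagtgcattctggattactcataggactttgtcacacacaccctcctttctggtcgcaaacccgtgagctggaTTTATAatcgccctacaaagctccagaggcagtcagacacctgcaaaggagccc
Gad2: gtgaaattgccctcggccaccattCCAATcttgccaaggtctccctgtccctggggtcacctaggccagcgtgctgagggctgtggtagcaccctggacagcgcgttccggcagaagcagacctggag

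The nested genes carry different letters upstream. *Chat* has 2 CCAAT boxes and no GC box in its 250 bases, and *Slc18a3* has 2 GC boxes, read on the other strand, and no CCAAT box. *Gad1* has 1 TATA box and 1 GC box, the latter outside the printed stretch, and *Gad2* has 1 CCAAT box. Of 32851 mouse promoter windows of this length, 33.8% hold a CCAAT box in either direction, 32.7% a GC box and 12.4% a TATA box. The letters ATCAAT, the core bound by Onecut factors, are in 6.72% of windows and in none of these 4. The upstream GC share was 54.8% for *Chat*, 66% for *Slc18a3*, 58% for *Gad1* and 64% for *Gad2*, beside a median of 52.4% over all windows. A match is a description of the letters and not a binding site.

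The members differed widely in level, and calretinin led. Per kilobase of merged exons, *Calb2* stood at 262 ± 63.1 CPM per kb in WT-RA (SD, n = 3), above all others in every library. *Slc6a9* (36.2 ± 5.77), *Slc32a1* (33.9 ± 6.30) and *Gad1* (31.4 ± 7.32 CPM per kb) came next and overlapped one another. *Calb1* followed at 16.8 ± 3.74, *Slc18a3* at 5.22 ± 1.38, *Gad2* at 2.89 ± 0.13 and *Chat* at 2.20 ± 0.34 CPM per kb, each apart from the gene above it. The transcription factors of horizontal cells were lowest, with *Lhx1* at 1.39 ± 0.49, which overlapped *Chat*, and *Onecut1* at 0.83 ± 0.17 CPM per kb. Taken on the longest transcript in place of merged exons, *Gad1* (66.7 CPM per kb) came before *Slc6a9* (53.5), so the order of neighbours depends on the length used.

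**Figure D1:**
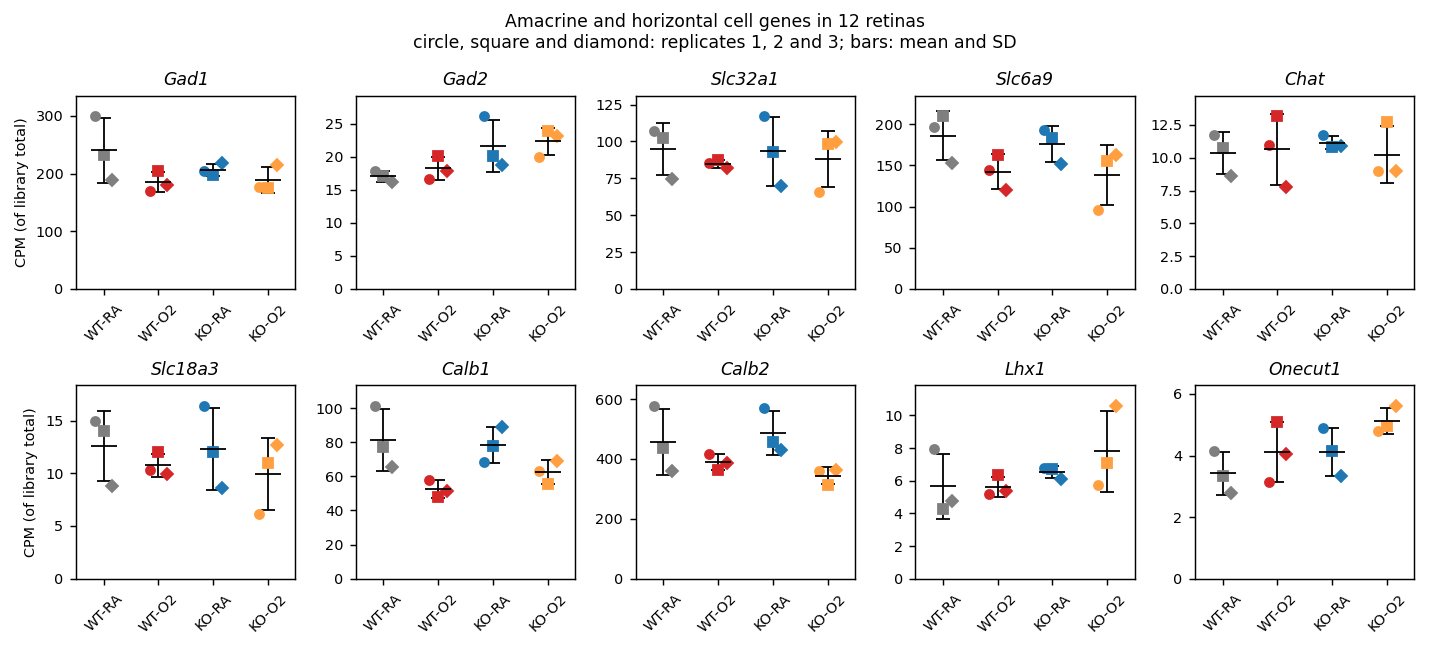
Level of each member in 12 retinas, in CPM of the library's total (vertical axes, which start at 0), by group. Points are libraries, with circle, square and diamond for replicates 1, 2 and 3, and bars give the mean and SD. *Calb1* is lower in all 3 WT-O2 libraries than in all 3 WT-RA libraries, and *Calb2* is lower in all 3 KO-O2 libraries than in all 3 KO-RA libraries, while most other groups overlap.

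In WT retinas hyperoxia was followed by lower calbindin, *Gad1* and *Slc6a9*, to 0.55 to 0.66 times the room-air level. These 3 of 10 members passed an adjusted p under 0.1 (edgeR quasi-likelihood test, adjusted over all 19173 genes), all lower, and 0 were higher. Over all genes tested 2.05% were called lower and 3.11% higher in the same comparison. A total of 9 of 10 members had a negative log2 fold change, with a median of -0.42, beside a median of 0.00 over all genes. None reached a fold of 2 as the study's rule asked, which 2.04% of genes did. In whole retina, fewer cells of a type and less RNA per cell cannot be told apart.

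GABA is made by 2 glutamate decarboxylases and loaded into vesicles by one transporter. *Gad1*, which encodes GAD67, was at 299, 233 and 188 CPM in WT-RA and 169.8, 205 and 181 in WT-O2. The WT groups overlapped in CPM, and were apart once each library was scaled by its TMM factor (267 ± 59.6 against 175 ± 12.0, SD, n = 3). The log2 fold change was -0.61 (SE 0.16, edgeR adjusted p = 0.0691). Leaving out any 1 of 5 WT libraries, all but the library labelled WT-RA replicate 3, ended that call (adjusted p = 0.134 to 0.213), and without WT-RA replicate 3 it was -0.73 (adjusted p = 0.0372). In KO-RA the level was 205, 197 and 218 CPM, and in KO-O2 176, 174 and 215, with overlap and a log2 fold change of -0.19 (SE 0.16, edgeR adjusted p = 0.545). *Gad1os*, an antisense gene, overlaps *Gad1*, and whether the counting used strand is not given in the sources used here.

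*Gad2*, which encodes GAD65, passed the test in neither genotype. It was at 17.8, 17.0 and 16.2 CPM in WT-RA and 16.6, 20.2 and 17.9 in WT-O2, and the log2 fold change was -0.14 (95% interval -0.38 to 0.10). In KO it was at 26.1, 20.2 and 18.7 CPM in room air and 19.98, 23.8 and 23.2 in hyperoxia, with a log2 fold change of 0.00 (95% interval -0.24 to 0.24). Scaled by library totals alone, the sign of *Gad2* turned positive in both genotypes.

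The ratio of the 2 decarboxylases within a library does not depend on scaling, and was examined after the levels had been seen. It was 16.8, 13.7 and 11.6 in WT-RA and 10.2, 10.2 and 10.1 in WT-O2, so every WT-O2 retina was lower (exact permutation test of log2 ratios, two-sided p = 0.1, the smallest that 3 against 3 allows, and 0.4 adjusted over 16 such comparisons of 4 ratios). The KO libraries had ratios of 7.85, 9.76 and 11.7 in room air and 8.83, 7.32 and 9.28 in hyperoxia. Those KO groups overlapped (exact permutation p = 0.4, adjusted 0.9), and every KO-O2 retina was below every WT-O2 retina (exact permutation p = 0.1, adjusted 0.4).

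*Slc32a1*, the vesicular transporter for GABA and glycine, was at 107, 102 and 74.5 CPM in WT-RA and 85.2, 87.3 and 82.0 in WT-O2. It did not pass the test, with a log2 fold change of -0.39 (SE 0.17, edgeR adjusted p = 0.280). In KO it was at 117, 92.6 and 70.1 CPM in room air and 66.0, 98.0 and 99.6 in hyperoxia, with a log2 fold change of -0.12 (SE 0.17). The spread within the KO groups was larger than the difference between them.

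Glycinergic amacrine cells take glycine back up through GlyT1, the product of *Slc6a9*. It was at 196, 209.5 and 153 CPM in WT-RA and 145, 162 and 119.9 in WT-O2. The WT groups overlapped in CPM and were apart after TMM scaling, and the log2 fold change was -0.62 (SE 0.18, edgeR adjusted p = 0.0919). Without any 1 of the same 5 WT libraries the call was lost (adjusted p = 0.168 to 0.272). In KO the level was 193, 183 and 151 CPM in room air and 95.9, 155 and 163 in hyperoxia, with a log2 fold change of -0.40 (SE 0.17, edgeR adjusted p = 0.230). *Slc6a9* is also used by red cell precursors, and 6 erythroid genes summed to 600 to 955 CPM in WT-RA, 1027 to 1710 in WT-O2, 565 to 781 in KO-RA and 385 to 446 in KO-O2. Their part in the result was not tested.

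Neither starburst marker passed the test. *Chat*, which makes acetylcholine, was at 11.7, 10.8 and 8.61 CPM in WT-RA and 11.0, 13.2 and 7.81 in WT-O2, and at 11.7, 10.8 and 10.9 in KO-RA and 9.01, 12.8 and 8.96 in KO-O2. Its log2 fold changes were -0.20 in WT (95% interval -0.62 to 0.22) and -0.18 in KO (-0.59 to 0.24). The groups overlapped in both genotypes.

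*Slc18a3*, the vesicular acetylcholine transporter, was at 14.996, 14.002 and 8.81 CPM in WT-RA and 10.4, 12.0 and 9.91 in WT-O2. In KO it was at 16.4, 12.0 and 8.63 CPM in room air and 6.14, 11.0 and 12.7 in hyperoxia. The log2 fold changes were -0.46 (SE 0.27) and -0.35 (SE 0.27), neither past the test, and all groups overlapped. Its ratio to *Chat* ranged from 0.68 in the library labelled KO-O2 replicate 1 to 1.41 in the library labelled KO-O2 replicate 3, and groups overlapped in all 4 pairwise comparisons. Its 95% intervals run from -1.04 to 0.13 in WT and from -0.93 to 0.24 in KO, so larger falls than those of *Gad1* are within them.

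**Figure D2:**
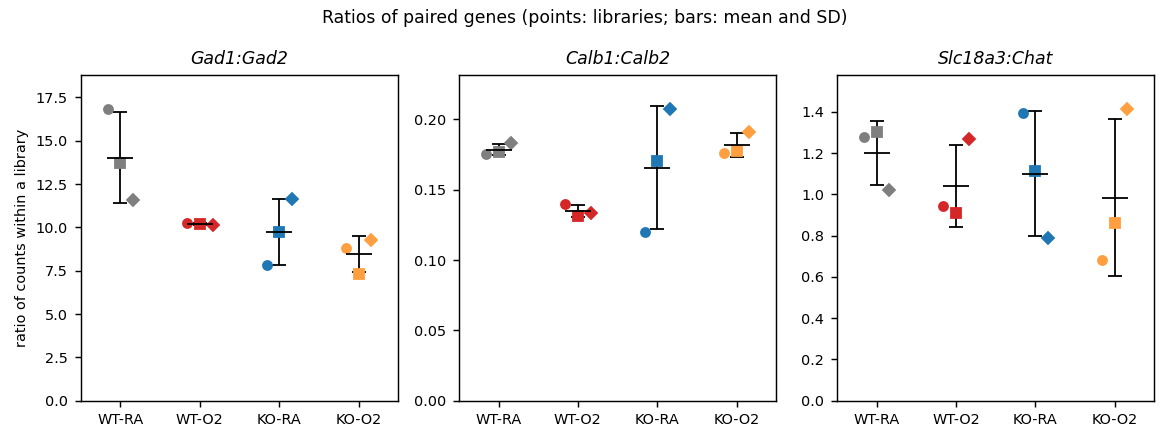
Ratio of counts within each retina for *Gad1* to *Gad2*, *Calb1* to *Calb2* and *Slc18a3* to *Chat* (vertical axes, no unit, from 0), by group. Points are libraries and bars the mean and SD. The first 2 ratios are lower in every WT-O2 library than in every WT-RA library, and the third overlaps in all groups.

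Both calcium-binding proteins had a call, *Calb1* in WT and *Calb2* in KO. *Calb1* was at 101, 77.1 and 65.7 CPM in WT-RA and 58.1, 47.7 and 51.6 in WT-O2. All 3 WT-O2 retinas were below all 3 WT-RA retinas, both in CPM and after TMM scaling. The log2 fold change was -0.86 (SE 0.18, edgeR adjusted p = 0.0358), a level 0.55 times that of room air. The call was lost without WT-RA replicate 1 (-0.67, adjusted p = 0.120), WT-O2 replicate 2 (-0.77, adjusted p = 0.139) or WT-O2 replicate 3 (-0.86, adjusted p = 0.106). It was kept without the 3 libraries rich in lens genes (-1.19, adjusted p = 0.0426), which leaves WT-RA replicate 1 alone in its group, and lost with lens expression in the model (-0.83, adjusted p = 0.170). It was at -0.93 (adjusted p = 0.1004) without the 2 libraries whose *Gsdmd* crosses the label, and at -0.87 (adjusted p = 0.146) with Y-linked expression in the model. In KO, *Calb1* was at 68.4, 77.8 and 89.0 CPM in room air and 63.2, 55.4 and 69.2 in hyperoxia, with a log2 fold change of -0.39 (SE 0.18, edgeR adjusted p = 0.258). The highest KO-O2 retina overlapped the lowest KO-RA retina.

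*Calb2* was the member called in KO. It was at 571, 457 and 430.1 CPM in KO-RA and 359, 313 and 362 in KO-O2, and the groups were apart in CPM and after TMM scaling. The log2 fold change was -0.54 (SE 0.16, edgeR adjusted p = 0.0784). Each of the 6 KO libraries, when left out, ended the call (adjusted p = 0.103 to 0.273) with the log2 fold change at -0.60 to -0.47. In WT the level was 576, 437 and 359 CPM in room air and 416, 362 and 387 in hyperoxia, with a log2 fold change of -0.47 (SE 0.16, edgeR adjusted p = 0.148). The 2 values lie on either side of the threshold, and the test of their difference did not call *Calb2*.

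Within a library, the ratio of *Calb1* to *Calb2* was 0.18, 0.18 and 0.18 in WT-RA and 0.14, 0.13 and 0.13 in WT-O2. Every WT-O2 retina was lower (exact permutation p = 0.1, the smallest possible, adjusted 0.4). The ratio was 0.12, 0.17 and 0.21 in KO-RA and 0.18, 0.18 and 0.19 in KO-O2, with overlap (exact permutation p = 0.7, adjusted 0.9), and every KO-O2 retina was above every WT-O2 retina (exact permutation p = 0.1, adjusted 0.4). This ratio too was examined after the levels had been seen. *Calb1* and *Calb2* differ in GC share of the longest transcript (36.8% and 53.5%) and in merged exon length (4846 and 1743 bases). The part of library trends on GC share and length in this ratio was not tested.

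The horizontal cell factors passed the test in neither genotype. *Lhx1*, which horizontal cells need to reach their layer, was at 7.94, 4.29 and 4.75 CPM in WT-RA and 5.20, 6.33 and 5.36 in WT-O2, and at 6.75, 6.68 and 6.10 in KO-RA and 5.71, 7.11 and 10.6 in KO-O2. *Onecut1*, which specifies horizontal cells in development, was at 4.15, 3.34 and 2.77 CPM in WT-RA and 3.15, 5.10 and 4.05 in WT-O2, and at 4.89, 4.14 and 3.34 in KO-RA and 4.80, 4.96 and 5.61 in KO-O2. The log2 fold changes were -0.25 (95% interval -0.82 to 0.33) and 0.02 (-0.44 to 0.47) in WT, and 0.21 (-0.36 to 0.78) and 0.27 (-0.19 to 0.72) in KO, for *Lhx1* and *Onecut1* in turn. For *Lhx1* the WT interval includes the change seen for *Gad1*, and for *Onecut1* it does not. The difference between genes was not tested.

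In KO retinas 1 of 10 members was called lower after hyperoxia and 0 higher, beside 3.44% and 4.38% of all genes tested. The members' median log2 fold change was -0.18. No member reached a 2-fold change, and 2.19% of genes did. After TMM scaling, 5 members (*Gad1*, *Slc32a1*, *Slc6a9*, *Calb1* and *Calb2*) were lower in all 3 WT-O2 than in all 3 WT-RA retinas, where 11.9% of all genes were, and 0 were higher, where 12.1% were. In KO, *Slc6a9* and *Calb2* were lower and *Onecut1* was higher without overlap, beside 12.7% and 13.5% of all genes.

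**Figure D3:**
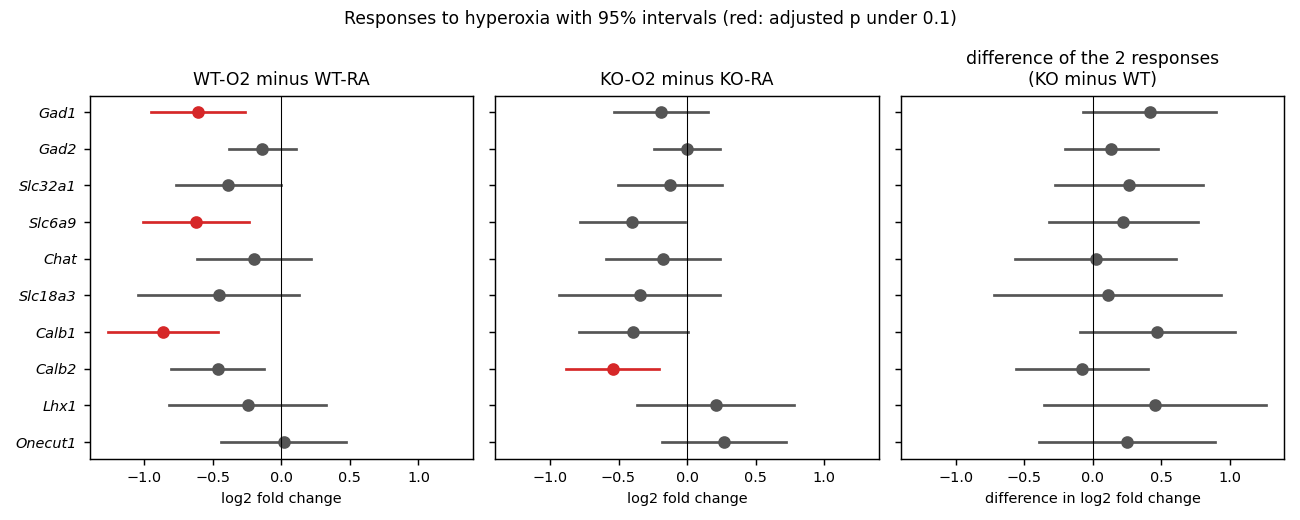
Log2 fold changes of the members (horizontal axes) from the fit to all 12 retinas, in WT, in KO, and the difference of the 2 responses. Points are estimates and lines 95% intervals, in red where the adjusted p was under 0.1. In WT 9 of 10 points lie below 0, and all 10 intervals of the difference include 0.

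The direct test of whether hyperoxia acted differently in the 2 genotypes called 0 of 10 members (edgeR interaction term). It called 0.00522% of all genes, and 0 of 10 members had an unadjusted p under 0.05 (10.6% of all genes did). The DESeq2 test of the same term also called 0 members. *Calb1* differed by 0.47 (SE 0.26, edgeR adjusted p = 0.550) and *Gad1* by 0.42 (SE 0.22, edgeR adjusted p = 0.538), both with a smaller fall in KO. The intervals of the difference, -0.09 to 1.04 and -0.07 to 0.90, include 0 and also values as large as the WT response.

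Between genotypes within one exposure, 0 of 10 members were called. In hyperoxia, calls were made for 0.569% of genes as higher in KO-O2 than in WT-O2 and for 0.704% as lower, with 0.292% of genes at a fold of 2. *Gad2* had the smallest p of the members, with a log2 difference of 0.31 (SE 0.11, unadjusted p = 0.0149, edgeR adjusted p = 0.249), and was the one member whose KO-O2 retinas were all above the WT-O2 retinas after TMM scaling, as 10.0% of genes were. After TMM scaling no member was lower without overlap, where 9.86% of genes were. In CPM *Calb2* was, at 358.8, 312.8 and 361.6 in KO-O2 and 416.1, 362.45 and 386.6 in WT-O2. The share of all genes apart in CPM was not computed. In room air 0.00522% of genes were called. *Gad1* was at a log2 difference of -0.37 (SE 0.16, unadjusted p = 0.0367, edgeR adjusted p = 0.361) and the others lay between -0.25 and 0.18. For *Gad2* every KO-RA retina was above every WT-RA retina in CPM, and the groups overlapped after TMM scaling. DESeq2 called 0 members in both of these comparisons.

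Some members were high or low together among the libraries of a group. For each library, log2(CPM + 0.5) after TMM scaling was set against its group's mean. *Slc32a1* and *Slc18a3* deviated together (Pearson r = 0.98 over 12 libraries), and *Slc6a9* went with both (r = 0.82 and 0.88). All 3 were lowest within their group in the libraries labelled WT-RA replicate 3, KO-RA replicate 3 and KO-O2 replicate 1, at -0.59 to -0.38 in the last of these. These 3 genes have the highest GC share of the members, 57% to 61.9% of the longest transcript, beside a median of 49.8% over 11939 genes above 5 CPM.

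Within their groups, the same libraries were low for GC-rich genes at large. The 10% of genes richest in GC (58.1% or more) minus the 10% poorest (41.3% or less) stood at -0.30 against the group mean in KO-O2 replicate 1, -0.18 in WT-RA replicate 3 and -0.13 in KO-RA replicate 3, and between -0.01 and 0.20 in the other 9 libraries. Against the mean of all libraries, that difference was 0.30, 0.27 and 0.03 in WT-RA and -0.01 to 0.01 in WT-O2. It was -0.14, -0.15 and -0.31 in KO-RA and -0.31, 0.19 and 0.09 in KO-O2, so it differed between groups as well. *Gad1* and *Calb1*, with GC shares of 47.3% and 36.8%, deviated together (r = 0.74) and *Calb1* was unrelated to *Slc32a1* (r = -0.07). WT-RA replicate 1 was the highest library of its group for 9 of 10 members, and its longest 10% of genes minus its shortest 10% stood at -0.48 against the mean of all libraries. With the trends on GC share and length removed, *Calb1* (-0.93), *Gad1* (-0.63) and *Slc6a9* (-0.52) stayed called in WT, and *Calb2* (-0.57) in KO. *Slc6a9* was then also called in KO.

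**Figure D4:**
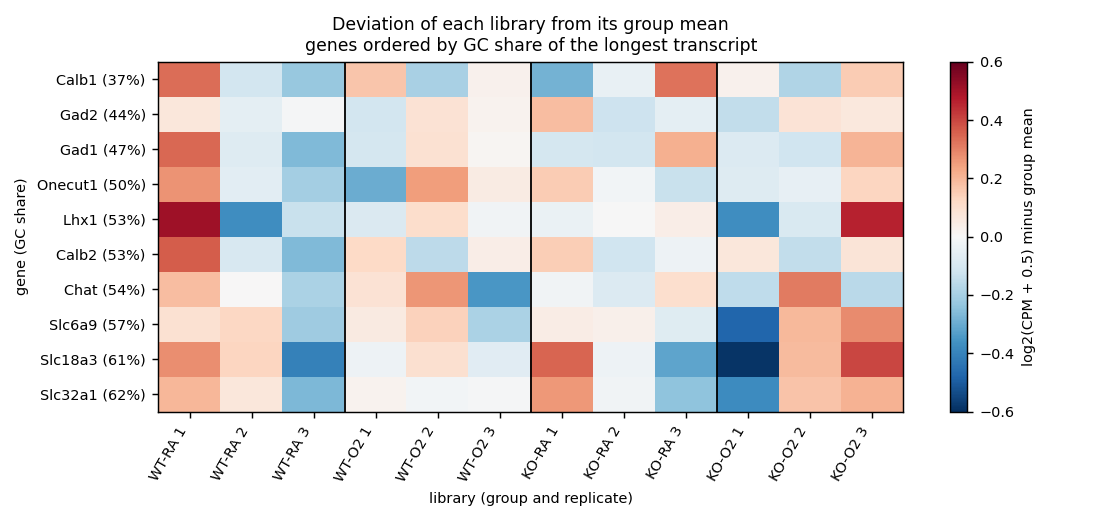
Deviation of each library from the mean of its group, log2(CPM + 0.5) after TMM scaling (colour, red above and blue below), with members ordered from low to high GC share of the longest transcript. The 3 most GC-rich members, at the bottom, are blue together in WT-RA 3, KO-RA 3 and KO-O2 1.

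The genes most like the members in pattern, by Pearson correlation over 12 libraries with the mean standardised log2(CPM + 0.5) of the 10 members among 15292 genes of at least 1 CPM, were *Arsb* (r = 0.96), *Irx6* (0.95), *Rgs8* (0.95), *Adcy8* (0.93) and *Kirrel3* (0.93). Libraries share depth and composition in all of these values, so the correlations are given as a description. *Irx6* is a homeobox gene of bipolar cells, *Rgs8* a regulator of G protein signaling and *Adcy8* an adenylyl cyclase.

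Receivers of inhibition and the other genes of these circuits were looked up in 11 lists of 83 genes, of which 80 were tested. In WT 17 were called lower and 2 higher after hyperoxia, and in KO 17 lower and 5 higher. Over all genes tested, 2.05% were called lower and 3.11% higher in WT, and 3.44% and 4.38% in KO. With library totals alone the WT calls of these lists were 4 higher and 3 lower. The median log2 fold change was -0.38 in WT, with 67 of 80 negative, and -0.19 in KO, with 54 negative, beside a median of 0.00 over all genes in both. Of the calls, 14 were shared with the same direction, 73.7% of those in WT and 63.6% of those in KO. The shared part of the calls over all genes was not computed. The 19 calls in WT became 7 to 9 without WT-RA replicate 1, WT-RA replicate 2 or any one WT-O2 library, and the 22 in KO became 13 without KO-RA replicate 1 and 10 without KO-O2 replicate 2.

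Of 16 GABA receptor subunits, 6 were called lower in WT and 9 in KO, with none higher, where 2.05% and 3.44% of all genes were lower. The rho2 subunit *Gabrr2*, typical of bipolar cell terminals, fell by 0.52 in WT and 0.31 in KO, and *Gabra3* fell by 0.58 and 0.54. The KO call of *Gabrr2* (edgeR adjusted p = 0.0813) was lost without any 1 KO library. Its WT call held in all 6 fits without 1 WT library, and *Gabra3* held in 6 such fits in WT and 5 in KO. *Gabrb2* fell by 0.68 in KO and stood at -0.30 in WT, where it was not called. Of 7 glycine receptor and related genes *Glra3* was called in both genotypes, with log2 fold changes of -0.46 and -0.66. Its WT call (edgeR adjusted p = 0.0937) was lost without any 1 WT library. Its KO call held in 5 of 6 fits without 1 KO library. *Glra1*, *Glra2* and *Glra4* had values of -0.63, -0.57 and -0.62 in WT without passing the test.

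Acetylcholine receptors included 3 of 13 called lower in each genotype and none higher, beside the same 2.05% and 3.44% of all genes. The muscarinic receptor *Chrm2* was at 6.23, 5.44 and 4.78 CPM in WT-RA and 2.80, 3.53 and 2.86 in WT-O2, and at 8.10, 6.45 and 5.94 in KO-RA and 3.26, 4.23 and 3.94 in KO-O2. Its log2 fold changes were -1.07 (SE 0.17, edgeR adjusted p = 0.00912) and -0.88 (SE 0.17, edgeR adjusted p = 0.0190). The nicotinic subunits *Chrna6* and *Chrnb3*, which ganglion cells express strongly, were lower by 0.68 and 0.65 in WT and by 0.77 and 0.83 in KO on the log2 scale. Of 6 fits without 1 library, the WT call held in 5 for *Chrna6* and 2 for *Chrnb3*, and both KO calls held in 6. The 8 ganglion cell markers summed to 958 to 1382 CPM in WT-RA, 1012 to 1072 in WT-O2, 1096 to 1337 in KO-RA and 905 to 1037 in KO-O2. On the TMM scale 2 of the 8 were called lower in WT (median log2 fold change -0.36) and 3 in KO (median -0.28), and their part in these values was not tested.

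Neuropeptides moved in both directions. *Cck*, for cholecystokinin, was at 64.7, 41.3 and 33.1 CPM in WT-RA and 23.2, 21.6 and 13.5 in WT-O2, a log2 fold change of -1.49 (SE 0.26, edgeR adjusted p = 0.0143). In KO it went from 41.7, 40.9 and 39.9 to 12.9, 8.01 and 11.2 CPM, a log2 fold change of -1.98 (SE 0.27, edgeR adjusted p = 0.00436). *Vip* fell by 0.79 in WT and 0.62 in KO. *Tac1*, which encodes substance P, was higher by 0.51 and 0.56, and *Npy* and *Penk* were higher in KO by 0.80 and 0.84 and not called in WT (0.28 and 0.19). Of 6 fits without 1 library, the *Tac1* call held in 2 in WT and 3 in KO. In KO the *Penk* call held in 1 such fit and the *Npy* call in 6. The calls of *Cck*, *Vip* and *Chrm2* in WT were kept under each of 11 other settings and without any 1 library, but under the study's rule of a 2-fold change *Vip* (0.58 times the room-air level) was not.

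Among the markers of other amacrine and horizontal cells, *Slc18a2*, the vesicular monoamine transporter, was lower by 0.53 in WT and 0.66 in KO, while *Th*, tyrosine hydroxylase of dopaminergic amacrine cells, did not pass the test (-0.95 in WT, -0.40 in KO). *Prox1*, a factor of horizontal and AII amacrine cells, fell by 0.41 in WT. *Slc17a8* (VGLUT3) fell by 0.79 in KO. *Gjd2*, the connexin of AII amacrine cells, and *Abat*, which breaks down GABA, fell by 0.44 and 0.41 in WT. The other starburst genes *Slc5a7*, *Megf10*, *Ache* and *Fezf1* were not called in either genotype. *Drd2* was lower in WT by 0.49, and *Drd4*, which photoreceptors express, was higher by 0.49 in WT and 0.70 in KO. Several WT calls were near the threshold, as for *Prox1* (edgeR adjusted p = 0.0876). Each WT library was left out in turn, in 6 fits. The WT call held in 0 of these for *Prox1* and in 1 each for *Slc18a2*, *Gjd2*, *Abat*, *Drd2* and *Drd4*. Of the 6 fits without 1 KO library, the KO call held in 3 for *Slc18a2*, 4 for *Slc17a8* and 6 for *Drd4*.

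Of these genes 4 were called between the genotypes in hyperoxia, all higher in KO-O2 than in WT-O2. Over all genes tested 0.569% were called higher and 0.704% lower in that comparison. The 4 called were *Prox1* (0.51), *Prdm13* (0.70), *Neurod6* (1.27) and *Isl1* (0.68 on the log2 scale), the last of which also marks bipolar and ganglion cells. *Neurod6* was low throughout, at 0.76, 1.15 and 1.49 CPM in WT-O2 and 2.53, 3.13 and 2.48 in KO-O2. Of 6 fits without 1 library, the call held in 6 for *Isl1*, in 1 each for *Prox1* and *Prdm13*, and in 0 for *Neurod6*. *Isl1* was at 121, 116 and 113.9 CPM in WT-O2 and 184, 199 and 171 in KO-O2 (SE 0.09, edgeR adjusted p = 0.0211). Without the 2 libraries whose *Gsdmd* crosses the label, 0 of the 4 were called, and 1 gene of the lists was called without any one WT-O2 library, KO-O2 replicate 2 or KO-O2 replicate 3. The interaction test called 0 of 80 with edgeR and 2 with DESeq2. Over all genes, DESeq2 called 291 higher and 256 lower of 18972. With edgeR 10 of the 80 had an unadjusted p under 0.05, beside 10.6% of all genes. Without KO-O2 replicate 1 edgeR called 3 of these genes, beside 184 higher and 156 lower of 20001 genes.

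**Figure D5:**
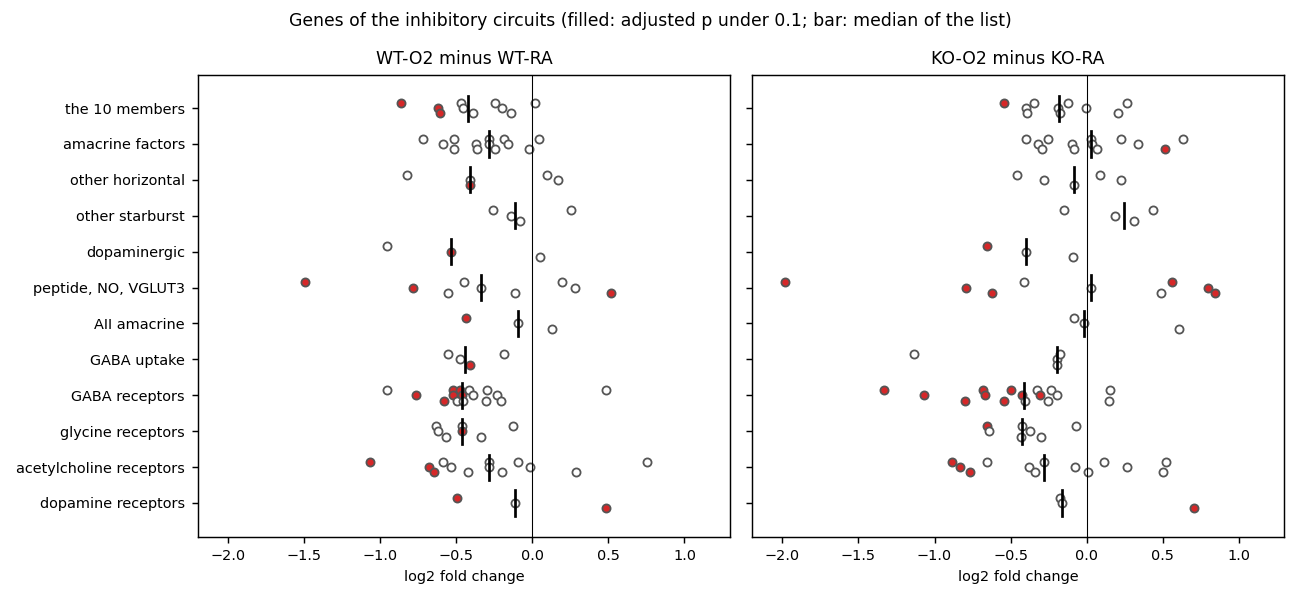
Log2 fold changes after hyperoxia (horizontal axes) in WT and KO for the 10 members and the 80 tested genes of 11 lists. Points are genes, filled where the adjusted p was under 0.1, and black bars are list medians. GABA and glycine receptor lists lie mostly below 0 in both genotypes, and the starburst and peptide lists spread to both sides.

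Other retinal cell types moved in the same comparisons. The 8 microglia genes summed to 38.0 to 53.0 CPM in WT-RA and 92.3 to 133 in WT-O2, and 44.0 to 51.6 in KO-RA and 88.7 to 125 in KO-O2. The 8 endothelial genes summed to 127 to 149 CPM in WT-RA and 265 to 314 in WT-O2, and to 138 to 169.6 in KO-RA and 231 to 259 in KO-O2. The 8 bipolar markers were at 1062 to 1381 CPM in WT-RA, 1120 to 1224 in WT-O2, 1244 to 1322 in KO-RA and 1533 to 1624 in KO-O2. On the TMM scale 3 of the 8 bipolar markers were called lower and 0 higher in WT (median -0.30), and 0 lower and 2 higher in KO (median 0.07). Of 8 Müller glia markers, 2 were called higher and 3 lower in each genotype. Of 8 microglia genes 4 were called higher in each genotype, and of 8 endothelial genes 6 in WT and 5 in KO, with 0 lower. Over all genes tested 3.11% were called higher and 2.05% lower in WT, and 4.38% and 3.44% in KO. The part of these cell types in the members' changes was not tested.

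Scaling matters for the WT comparison. TMM factors were 0.86 to 0.94 in WT-RA and 1.03 to 1.10 in WT-O2, and with library totals alone the median of all genes moved up by 0.24 on the log2 scale in WT and by 0.05 in KO. On that scale *Calb1* alone stayed called in WT (-0.63, edgeR adjusted p = 0.0382), *Gad1* was at -0.37 and *Slc6a9* at -0.39, and *Chat* and *Gad2* turned positive (0.04 and 0.10). All changes given here are relative to TMM scaling.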

How the data were processed

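RNA from whole retinas of 12 mice was sequenced by BGI, with 12 lungs sequenced alongside. The authors ran kallisto and then tximport, whose settings are not given in the sources used here, and deposited expected counts (estimated counts) per gene without library scaling. The build is GRCm39 in the supplemental methods and mm10 in the labels. Gene symbols came from the GRCm38 annotation by identifier. Counts were rounded and fitted in edgeR 4.0.16 (R 4.3.3) with TMM factors, filterByExpr by group and a term per group over all 12 retinas, by robust quasi-likelihood F-tests with Benjamini-Hochberg adjustment. A call was an adjusted p under 0.1. SE is the size of the log2 fold change divided by √F. The study also asked for a fold of 2. The p-values of the fit rest on the spread between mice within their groups, estimated together over the 4 groups of 3. Alternatives were RLE factors, library totals, no filter, DESeq2 1.42.0, the 2 groups alone, lens or rod covariates and leaving out each library. Another 4 were chosen after seeing the data. The members and lists were chosen with earlier results of these data known. Named genes are all members, up to 4 of each list with the smallest p, and others called that were named after their values were seen. The paper's comparison results were not used. GENCODE vM21 gave lengths and GC shares, and RefSeq (GRCm38.p6) the upstream sequence of 8 of 10 members. Lung counts were used only for levels. One gene that the rule for named genes takes is not reported here.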

Additional observations from a re-analysis of the deposited data

Results flagged for a closer look

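*Slc6a9* was the one member with a clear signal outside the retina, in lung libraries that the retinal comparisons do not use. Its mean over the 12 lungs was 31.8 CPM. It stood at 43.3, 42.3 and 38.2 CPM in WT-RA lungs and 20.7, 23.5 and 26.2 in WT-O2, and at 41.0, 41.0 and 37.5 in KO-RA and 21.5, 24.3 and 21.9 in KO-O2 (mice in 85% oxygen from day 1 to 14). Lungs were collected on day 15. All 6 hyperoxia lungs were below all 6 room-air lungs in CPM. The share of all lung genes that separate in this way was not computed, and no lung comparison was tested. The other 9 members reached at most 0.86 CPM in any lung.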

How the results depend on the processing

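None of the 4 calls of members held under every setting, and with 3 retinas in each group, the variation among them limits what can be called. The cause of each change below was not tested, except that the rule of a 2-fold change is stricter by construction and that leaving out libraries leaves fewer samples. The members called after hyperoxia in WT (3 in the report) numbered 0 with the 2-fold rule, 1 with library totals, 0 with the lens covariate, 6 with the rod covariate, 0 with Y-linked expression as covariate, 0 without the 2 libraries whose *Gsdmd* crosses the label, and 0 to 4 without 1 library. In KO (1 in the report) they numbered 0 with the 2-fold rule, library totals, no filter, the rod covariate, Y-linked expression or without those 2 libraries, 2 with GC and length trends removed, and 0 without any 1 library. Calls over all genes moved under these settings as well. In WT they were 597 higher and 393 lower in the report, and 2477 and 119 with library totals. They were 122 and 56 with the lens covariate, 949 and 966 with the rod covariate and 279 and 95 with Y-linked expression. In KO they were 840 and 660 in the report, 827 and 305 with library totals and 517 and 359 with the rod covariate. With GC and length trends removed they were 1106 and 932. Without the 3 libraries rich in lens genes, WT-RA has a lone library, assumed to vary like the other groups.

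The other circuit genes called in WT (19) numbered 2 with the 2-fold rule, 7 with library totals, 12 with no filter, 6 with the lens covariate, 30 with the rod covariate, 6 with Y-linked expression, 7 without the 2 *Gsdmd*-crossing libraries and 7 to 20 without 1 library. With library totals the WT calls were 4 higher and 3 lower. In KO (22) they numbered 3 with the 2-fold rule, 13 with the rod covariate, 14 without the lens-rich libraries and 10 to 21 without 1 library. Between KO-O2 and WT-O2 (4) they numbered 1 with the 2-fold rule, library totals, no filter, the 2 groups alone, the lens covariate, Y-linked expression or without the lens-rich libraries, 8 with DESeq2, 0 without the *Gsdmd*-crossing libraries and 1 to 5 without 1 library. Over all genes that comparison gave 109 higher and 135 lower in the report, and 404 and 561 with DESeq2. Without the *Gsdmd*-crossing libraries it gave 1 and 2. In room air the circuit genes called (0) numbered 1 with library totals or DESeq2. Over all genes, library totals then called 473 higher and 12 lower, and DESeq2 321 and 410. The interaction (0) gave 2 with DESeq2 and 0 to 3 without 1 library. RLE factors moved none of these counts by over 1.5 times. No paired analysis was possible because the replicate numbers only name libraries in accession order.

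Signs turned only in comparisons where the member was not called. In WT these were *Chat* (0.040) and *Gad2* (0.10) with library totals, *Onecut1* at -0.17 with the lens covariate, -0.029 with the rod covariate, -0.19 with Y-linked expression, -0.27 without the lens-rich libraries and -0.027 without the *Gsdmd*-crossing ones, and *Chat* at 0.0027 with Y-linked expression. In KO *Gad2* was at 0.044 with library totals, 0.00015 with no filter, 0.066 with the rod covariate and 0.059 with GC and length trends removed, *Slc32a1* at 0.15 and *Slc18a3* at 0.042 with the rod covariate, *Chat* at 0.0078 with Y-linked expression and *Lhx1* at -0.079 without the *Gsdmd*-crossing libraries. Between KO-O2 and WT-O2 the rod covariate gave *Calb2* 0.075, *Chat* 0.11, *Slc6a9* 0.31 and *Slc18a3* 0.53, and leaving out the *Gsdmd*-crossing libraries gave *Chat* 0.054, *Slc32a1* -0.033 and *Gad1* -0.061. Without 1 library the ranges that crossed 0 were, in WT, *Lhx1* -0.43 to 0.077 and *Onecut1* -0.13 to 0.18, in KO, *Lhx1* -0.079 to 0.39, *Gad2* -0.064 to 0.10 and *Slc32a1* -0.24 to 0.043, and between KO-O2 and WT-O2, *Chat* -0.21 to 0.12, *Slc6a9* -0.16 to 0.18, *Slc32a1* -0.033 to 0.24, *Gad1* -0.061 to 0.11 and *Slc18a3* -0.31 to 0.16.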
